A study of Mus musculus with 13 samples.

Results

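The genes examined here encode the proteins of the mitochondrial ribosome that carry an Mrpl or Mrps symbol followed by a number. They were chosen by symbol alone, and each gene was read from its brightest probe set with a single symbol, provided that the mean over all arrays reached a log2 signal of 4.9. This gave 73 genes, 46 Mrpl and 27 Mrps, of the 10425 genes that passed the same level and of 17097 genes with a symbol. All 73 passed it, and the dimmest were Mrpl47, Mrpl15 and Mrps11, with means of 6.24, 6.81 and 7.07, so no member lay just below it. Mrps28, Mrps18c, Mrpl51, Mrpl22 and Mrpl45 had no probe set with a single symbol and were not analysed here.

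Mitochondria keep a small genome whose messenger RNAs are translated by a ribosome of their own. That ribosome has a large and a small subunit, with ribosomal RNAs encoded by the mitochondrial genome and proteins encoded in the nucleus, made in the cytosol and imported. Some of the proteins descend from the bacterial ribosome and others are found only in mitochondria. The ribosome makes core subunits of the respiratory chain and of the ATP synthase, on which muscle fibres depend for oxidative ATP production.

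Gene expression was measured in quadriceps of 13 male C57Bl/6 mice aged 4 months, with 1 Affymetrix perfect-match strip array per animal. Of these animals 3 were labelled SKM-KO, 3 C, 4 SKM-Tg and 3 Wt. All mice ate standard chow, the muscle was frozen in liquid nitrogen, and 25 ng of total RNA per animal went through isothermal amplification with a biotin label. The study's design names loss and gain of function of DOR, an earlier name of Trp53inp2, which encodes a protein that acts in autophagosome formation and as a nuclear receptor coactivator. What the group names stand for, the allele, the transgene and the promoter or Cre behind them are not given in the labels. SKM-KO was set against C and SKM-Tg against Wt by reading the names, and all comparisons depend on that reading.

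Trp53inp2 itself was at 8.58, 8.79 and 8.99 (log2 signal) in SKM-KO, against 11.06, 11.19 and 11.15 in C. The groups did not overlap, and the difference was -2.35 (SE 0.14, limma adjusted p 3.76e-06), a 5.08-fold lower signal in SKM-KO. In the arrays labelled SKM-Tg it was at 11.11, 11.03, 11.28 and 11.24, against 11.20, 11.46 and 11.00 in Wt. These groups overlapped (difference -0.06, SE 0.13, limma adjusted p 0.886), so the labelled gain of function was not visible at this probe set. Whether the probe set lies within the transgene is not given in the sources used here. For that reason the animals are called the arrays labelled SKM-Tg wherever a direction is drawn from them. All 10 markers of skeletal muscle fibres, among them Acta1, Ckm and Ttn, passed the same level.

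The start regions of the members are shown first because some genes of this family are known targets of nuclear factors, among them NRF1 and GABPA, that also act on other genes for mitochondrial proteins. RefSeq windows on GRCm38.p6, 250 bases before to 50 bases after a start, were at hand for 65 of the 73 members, in 71 windows. Each window was searched on both strands for fixed letters of 5 motifs. The letters were GCGCANGCG for NRF1, CCGGAAGT for GABPA, AAGATGGCG for YY1, TCAAGGTCA for the oestrogen-related receptors (ERR) and CACGTG for the E-box. A match is a description of letters and does not show binding, and a window with no match only lacks these letters.

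NRF1 letters stood in the windows of 14 members, which is 21.5% of 65, against 9.58% of 17427 other protein-coding genes. GABPA letters stood in those of 10 members, 15.4% against 5.65%. YY1 letters stood in those of 8 members, 12.3% against 2.1%. The E-box was in 4 members, 6.15% against 8.92%, and the ERR letters were in 0 members, against 0.38% of the others. Counted over all 32851 windows, the shares were 6.25% for NRF1, 3.89% for GABPA, 1.4% for YY1, 7.15% for the E-box and 0.42% for ERR. Over the 71 member windows they were 19.7%, 14.1%, 11.3%, 8.45% and 0%, so the E-box was not rarer among members by that count. In all, 32 members held at least 1 of the motifs. The median GC content of the windows was 58.3% over all 65 members, against 56.3% in the other coding genes.

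The 6 windows below, 2 each for NRF1, GABPA and YY1, belong to 5 members named in the comparisons and to Mrps11, 1 of the dimmest members. They are printed 5′ to 3′ on the gene's strand with the matched letters in capitals. Mrpl32, on chr13:14612988-14613287 (minus strand), encodes a large-subunit protein whose maturation depends on a mitochondrial inner-membrane protease. Mrpl17 lies on chr7:105811038-105811337 (minus strand), Mrpl27 on chr11:94653541-94653840 (plus strand) and Mrpl18 on chr17:12916042-12916341 (minus strand). Mrps11 lies on chr7:78782881-78783180 (plus strand) and Mrps18a on chr17:46110754-46111053 (plus strand). In Mrpl32 the first capital run holds 2 overlapping NRF1 matches, 1 per strand, beginning 87 and 86 bases before the start, and a further match begins 23 bases before it. The matches in Mrpl17 begin 49 and 11 bases before the start. GABPA letters begin 55 bases before the start in Mrpl27 and 240 bases before it in Mrpl18. YY1 letters begin 108 bases before the start in Mrps11, where they read on the opposite strand, and at base 12 after it in Mrps18a.
Mrpl32: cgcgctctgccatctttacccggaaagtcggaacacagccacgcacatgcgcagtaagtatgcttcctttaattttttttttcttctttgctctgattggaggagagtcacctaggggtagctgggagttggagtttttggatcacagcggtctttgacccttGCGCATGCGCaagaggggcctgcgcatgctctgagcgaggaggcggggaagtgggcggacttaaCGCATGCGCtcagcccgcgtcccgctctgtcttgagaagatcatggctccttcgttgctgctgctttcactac
Mrpl17: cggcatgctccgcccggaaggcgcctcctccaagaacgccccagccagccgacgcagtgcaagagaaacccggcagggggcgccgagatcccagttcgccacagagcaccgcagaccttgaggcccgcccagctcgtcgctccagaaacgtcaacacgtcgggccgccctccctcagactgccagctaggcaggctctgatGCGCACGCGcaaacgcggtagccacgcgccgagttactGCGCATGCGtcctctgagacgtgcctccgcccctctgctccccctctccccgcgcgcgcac
Mrpl27: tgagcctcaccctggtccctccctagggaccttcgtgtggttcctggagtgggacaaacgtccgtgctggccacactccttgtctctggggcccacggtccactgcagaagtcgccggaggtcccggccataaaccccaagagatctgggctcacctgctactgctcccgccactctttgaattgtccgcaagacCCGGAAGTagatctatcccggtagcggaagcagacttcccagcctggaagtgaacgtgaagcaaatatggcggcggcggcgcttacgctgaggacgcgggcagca
Mrpl18: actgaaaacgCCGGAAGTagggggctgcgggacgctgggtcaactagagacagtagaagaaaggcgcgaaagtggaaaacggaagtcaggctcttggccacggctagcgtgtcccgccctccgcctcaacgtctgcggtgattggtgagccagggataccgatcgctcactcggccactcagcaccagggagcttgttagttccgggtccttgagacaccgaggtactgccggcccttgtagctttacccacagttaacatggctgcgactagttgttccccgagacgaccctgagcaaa
Mrps11: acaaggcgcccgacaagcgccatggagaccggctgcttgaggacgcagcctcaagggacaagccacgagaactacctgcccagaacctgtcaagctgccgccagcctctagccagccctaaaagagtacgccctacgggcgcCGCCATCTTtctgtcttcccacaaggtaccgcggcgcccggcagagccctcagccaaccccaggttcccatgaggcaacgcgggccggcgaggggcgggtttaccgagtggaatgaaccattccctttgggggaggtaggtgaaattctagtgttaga
Mrps18a: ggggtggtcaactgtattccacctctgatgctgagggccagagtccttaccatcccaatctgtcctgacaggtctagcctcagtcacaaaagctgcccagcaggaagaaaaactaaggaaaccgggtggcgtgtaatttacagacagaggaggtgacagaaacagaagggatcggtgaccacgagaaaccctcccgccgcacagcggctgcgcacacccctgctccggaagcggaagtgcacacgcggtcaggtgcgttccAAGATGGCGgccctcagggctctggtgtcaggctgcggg

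Many members have a neighbour that starts in the opposite direction. A protein-coding start on the opposite strand lay upstream within 1000 bases for 22 of the 65 members with a window (33.9%), against 1461 other coding genes (8.38%). In 1 pair both genes are members: the starts of Mrpl46, a large-subunit protein, and Mrps11, a small-subunit protein, are 42 bases apart. Mrps11 stood at -0.08 (SE 0.18) in SKM-KO minus C and at -0.08 (SE 0.17) in SKM-Tg minus Wt. Several partners act in mitochondria themselves. Mrpl43 starts 116 bases from Twnk, the helicase of mitochondrial DNA, Mrps12 147 bases from Sars2, a mitochondrial seryl-tRNA synthetase, and Mrpl47 308 bases from Ndufb5, a subunit of respiratory complex I. Members on 17 chromosomes were represented in all.

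Before the group comparisons, 4 arrays are described that were each the lowest or highest of their group over the members. For each array the median over the 73 members of the deviation from the gene's mean over 13 arrays was taken. SKM-KO 1 stood at -0.12, with SKM-KO 2 at -0.01 and SKM-KO 3 at -0.02, and C 1 stood at -0.08, with C 2 at 0.04 and C 3 at -0.02. SKM-Tg 3 stood at 0.20, while SKM-Tg 1, SKM-Tg 2 and SKM-Tg 4 stood at -0.05, -0.07 and -0.01. Wt 2 also stood at 0.20, with Wt 1 at 0.00 and Wt 3 at -0.06. SKM-Tg 3 and Wt 2 were therefore the 2 highest arrays for the family, and SKM-KO 1 the lowest.

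**Figure D1:**
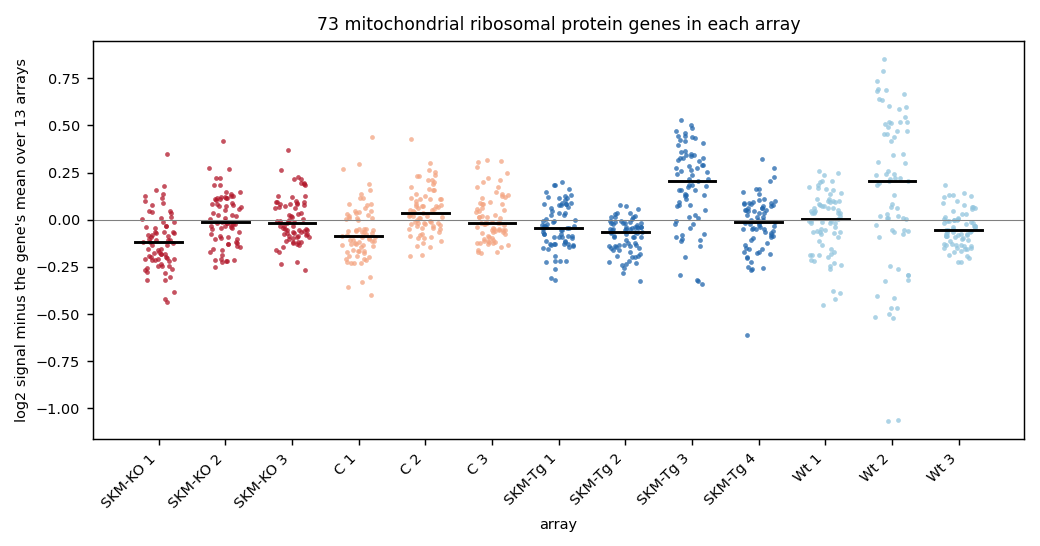
Deviation of each of the 73 mitochondrial ribosomal protein genes from its own mean over 13 arrays (vertical axis, log2) in each array (horizontal axis), 1 point per gene and a bar at the median. The median is 0.20 in SKM-Tg 3 and in Wt 2 and -0.12 in SKM-KO 1, and the points of Wt 2 spread the widest.

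Wt 2 departed in both directions. It was the highest of the 13 arrays for 32 members and the lowest for 15. Against the mean of the other Wt arrays it was above for 53 members and below for 20 (27.4%, against 40.7% of all genes tested). SKM-Tg 3 was above the mean of the other SKM-Tg arrays for 64 members and below for 9 (12.3%, against 37.2% of all genes). Departures of over 0.25 in either direction were as common in Wt 2 over all genes (64.4%) as over members (64.4%), and in SKM-Tg 3 they were 40.6% over all genes and 56.2% over members. The 53 members that were above in Wt 2 were all above in SKM-Tg 3 too, and 9 members were below in both. The largest departures of Wt 2 upward were Mrpl38 (0.80), Mrpl58 (0.77) and Mrpl55 (0.75), and downward Mrpl1 (-1.01) and Mrpl50 (-0.92). Mrpl58 encodes a peptidyl-tRNA hydrolase built into the large subunit, and Mrpl1 is the homologue of the protein of the bacterial L1 stalk. SKM-KO 1 was below the mean of the other SKM-KO arrays for 68 members (93.2%, against 62.5% of all genes tested), and C 1 was below the mean of the other C arrays for 59 (80.8%, against 54.7%).

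**Figure D2:**
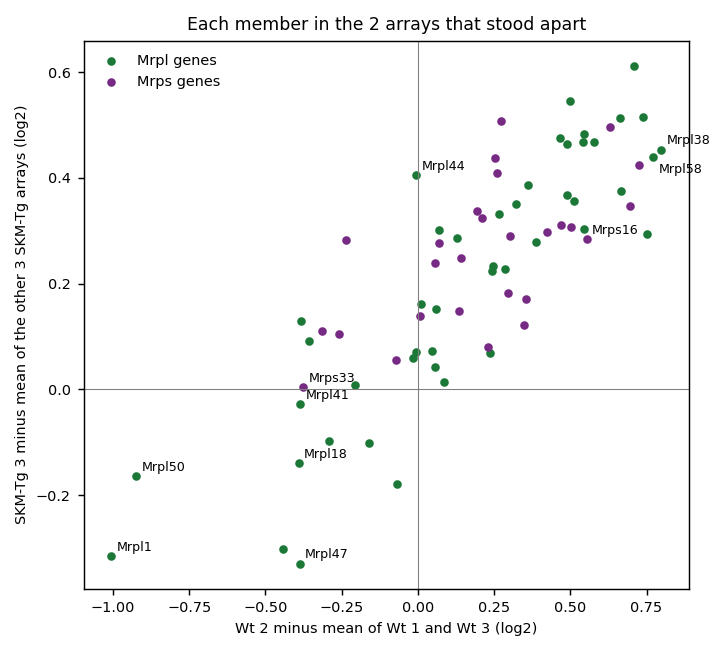
Departure of each member in SKM-Tg 3 from the mean of the other 3 SKM-Tg arrays (vertical axis, log2) against its departure in Wt 2 from the mean of Wt 1 and Wt 3 (horizontal axis, log2), with Mrpl and Mrps genes in separate colours. No member lies at the lower right, 53 lie at the upper right, and Mrpl1 and Mrpl50 lie farthest to the left, at -1.01 and -0.92.

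The spread between arrays was wider in SKM-Tg and Wt. The median standard deviation (SD) over members was 0.0787 in SKM-KO and 0.0747 in C, and 0.174 in SKM-Tg and 0.213 in Wt. The corresponding medians over all genes tested were 0.0981 in SKM-KO, 0.0956 in C, 0.172 in SKM-Tg and 0.253 in Wt, so the wider spread of the SKM-Tg and Wt arrays was also seen over all genes. Among members the smallest SD within groups belonged to Mrpl16 (0.0584), Mrps23 (0.0585) and Mrpl39 (0.0676), and the largest to Mrpl50 (0.352), Mrpl1 (0.318) and Mrpl38 (0.307). Mrpl16, whose bacterial homologue lies by the peptidyl transferase centre, ran only between 9.35 and 9.49 over the 13 arrays.

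In SKM-KO muscle the members lay slightly below C, and 0 of the 73 passed the threshold of an adjusted p of 0.05 over all genes tested (limma, two-sided). The threshold was passed by 0.00959% of all genes, which is Trp53inp2 alone. At an unadjusted p under 0.05 there were also 0 members, against 0.269% of all genes higher and 0.288% lower. Fitting SKM-KO and C alone gave 0 members in either direction too, against 97 of all genes lower (0.930%) and 187 higher. The difference was below 0 for 57 members, where 46% of all genes were below 0. The median difference was -0.04, against 0.01 over all genes, and the members ran between -0.13 (Mrpl19) and 0.09 (Mrpl41). The count moved with single arrays: without SKM-KO 1, 32 members were below 0 and the median was 0.01. Without C 1 there were 68, and without both arrays 52, with a median of -0.02. The share of all genes below 0 without these arrays is not given here. In bulk muscle, fewer cells of a type and less RNA per cell cannot be told apart.

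Of 28 large-subunit proteins of bacterial type, 26 were below 0 (median -0.04). Mrpl13, a homologue of a bacterial large-subunit protein, had the smallest unadjusted p of the family (0.209). Its log2 signal was 8.78, 8.97 and 8.94 in SKM-KO, against 8.95, 9.05 and 9.07 in C. One array of SKM-KO was above the lowest C array, and the difference of means was -0.13 (SE 0.10, limma adjusted p 0.99997). Mrpl19 stood at -0.13 (SE 0.17), at -0.02 without C 1 and at -0.26 without C 2. Mrpl34 stood at -0.12 (SE 0.17), and at -0.04 without SKM-KO 1. For Mrpl19, 4 probe sets disagreed, from -0.13 to 0.13. Only Mrpl11 and Mrpl32 of this class were above 0, at 0.02 (SE 0.09) and 0.04 (SE 0.11).

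Of 19 large-subunit proteins classed as mitochondria-specific, 16 were below 0 (median -0.04). Mrpl52 was at 9.25, 9.32 and 9.26 in SKM-KO, against 9.42, 9.40 and 9.35 in C. It was the only member whose 2 groups did not overlap, where 2.83% of all genes were lower and 4.66% higher without overlap. The difference was -0.11 (SE 0.09, limma adjusted p 0.99997), and -0.08 without SKM-KO 1 and C 1. Mrpl40 stood at -0.11 (SE 0.14). Mrpl41 had the highest value of the family, with 9.82, 9.80 and 9.94 in SKM-KO and 9.55, 9.84 and 9.90 in C, where C 1 alone was low. Its difference of 0.09 (SE 0.15) was -0.02 without C 1.

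Small-subunit members were read by the same classes. Of 14 proteins of bacterial type 10 were below 0 (median -0.03), and of 10 classed as mitochondria-specific 4 were (median 0.00). Mrps21, the homologue of a bacterial small-subunit protein, was at 8.67, 8.76 and 8.79 in SKM-KO, against 8.89, 8.87 and 8.75 in C. C 3 lay below 2 of the SKM-KO arrays, and the difference was -0.10 (SE 0.10). Mrps7 and Mrps2 stood at -0.12 (SE 0.14) and -0.09 (SE 0.12), and Mrps34, Mrps17, Mrps10 and Mrps23 at 0.05, 0.03, 0.02 and 0.02. Without SKM-KO 1 the counts below 0 were 15 and 8 in the bacterial-type and mitochondria-specific large-subunit classes and 7 and 1 in the same classes of the small subunit.

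The intervals of the fit give the differences these arrays allow. For 69 of 73 members the 95% interval of the SKM-KO difference lay within 0.5 of 0 on the log2 scale, and the outermost bounds were -0.59 (Mrpl1) and 0.59 (Mrpl50). When SKM-KO and C were fitted alone, all 73 intervals lay within 0.5, with outermost bounds of -0.41 (Mrpl19) and 0.33 (Mrpl41). Of the 16 members with the smallest p-values (8 per direction), 15 moved by over 1.5 times when 1 array was left out, and 6 of these changed sign. Mrpl52 was the exception, between -0.13 and -0.10.

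Markers of other cells in the muscle were read from the same arrays. Nerve and Schwann cell markers were higher in SKM-KO for 4 of 4 genes past the level, of 7 listed (median 0.33). Their summed linear signals were 679 to 979 in SKM-KO and 599 to 655 in C, which did not overlap. Fat cell markers were higher for 4 of 4 genes past the level, of 8 listed (median 0.47). Their sum was 5719 in SKM-KO 2 but 3687 and 3648 in SKM-KO 1 and SKM-KO 3, against 3568 to 4311 in C. Macrophage markers were higher in SKM-KO for 9 of 9 genes past the level, of 10 listed (median 0.20). Their sums were 882 to 1076 in SKM-KO and 738 to 935 in C. Plasma protein genes of the liver were lower in SKM-KO for 5 of 5 genes past the level, of 7 listed (median -0.80). Their sums were 150 to 190 in SKM-KO and 203 to 794 in C. Fibroblast and matrix markers were higher for 4 of 5 genes past the level, of 8 listed (median 0.14). Endothelial markers were lower for 6 of 8 (median -0.06). None of these markers passed the adjusted threshold, no signal is 0 on this scale, and their part in the members' differences was not tested.

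**Figure D3:**
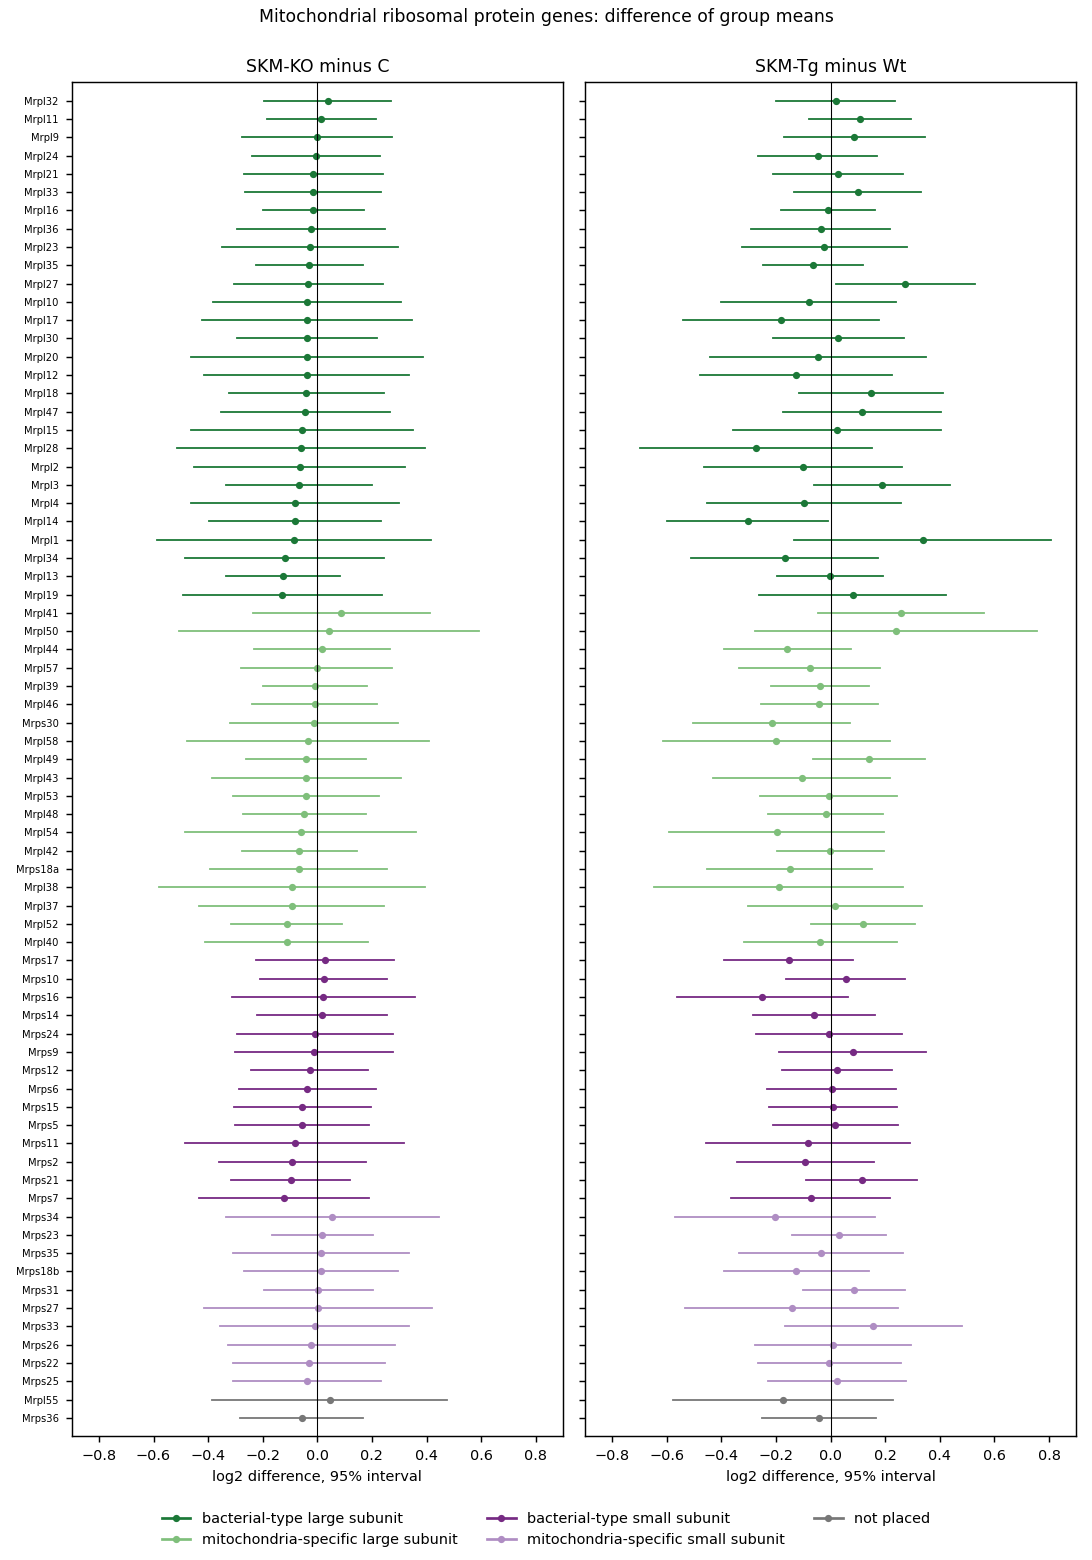
Difference of group means with its 95% interval (horizontal axis, log2) for every member, SKM-KO minus C on the left and SKM-Tg minus Wt on the right, coloured by subunit class. On the left 57 of 73 points are below 0 and all intervals include 0, and on the right the points run from -0.30 (Mrpl14) to 0.34 (Mrpl1).

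In the arrays labelled SKM-Tg the members stood on both sides of Wt. None of the 73 passed the threshold, as was so for all genes tested (0%), and the smallest adjusted p was 0.702 (limma). Without Wt 3, 30 of all genes passed and 0 members did. At an unadjusted p under 0.05 there were 1 higher member, Mrpl27, and 1 lower, Mrpl14, against 1.5% and 5.39% of all genes. Without Wt 3 the lower members numbered 8, a count that has no share of all genes beside it here. When the arrays labelled SKM-Tg and Wt were fitted alone there were 0 members in either direction. In that fit 224 of all genes were lower (2.15%) and 73 higher. The groups did not overlap for 0 members, against 1.18% of all genes higher and 2.78% lower. The difference was below 0 for 43 members, where 62.1% of all genes were below 0, and the median was -0.02, against -0.05 over all genes. Quantile normalization gave 26 members below 0 and cyclic loess 27. The count also moved with single arrays: without Wt 2 there were 22 below 0 (median 0.04), without SKM-Tg 3 there were 54 (median -0.08), and without both there were 43 (median -0.02). The share of all genes below 0 under these settings is not given here. Over all genes the median deviation was 0.12 in Wt 2 and 0.05 in SKM-Tg 3. These counts therefore cannot be read as a turn of the members alone.

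Mrpl27, whose bacterial homologue reaches towards the peptidyl transferase centre, was at 8.79, 8.57, 8.94 and 8.60 in the arrays labelled SKM-Tg, against 8.23, 8.54 and 8.59 in Wt. Of the SKM-Tg arrays 3 were above all Wt arrays, and 1 lay among them. The difference was 0.27 (SE 0.12, unadjusted p 0.0380, limma adjusted p 0.702), and it ran from 0.16 without Wt 1 to 0.34 without Wt 3 as single arrays were left out. Its second probe set above the level of 4.9 gave 0.22. Its start region is 1 of those printed above and lies 48 bases from Eme1, a gene for a DNA repair endonuclease subunit.

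Mrpl14, the homologue of a bacterial protein at the face between the subunits, was at 9.49, 9.41, 9.88 and 9.58 in the arrays labelled SKM-Tg, against 9.89, 10.14 and 9.66 in Wt. The groups overlapped through SKM-Tg 3. The difference was -0.30 (SE 0.14, unadjusted p 0.0435, limma adjusted p 0.702), and -0.18 without Wt 2. The second probe set of Mrpl14 gave 0.06, the widest disagreement in this comparison.

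Other large-subunit members with the smallest p-values were on both sides. Mrpl41, found only in mitochondria, was at 9.74, 9.67, 9.66 and 9.65 in the arrays labelled SKM-Tg, against 9.29, 9.16 and 9.80 in Wt. The SKM-Tg arrays were tightly grouped inside the Wt range, and the difference of 0.26 (SE 0.14) was 0.13 without Wt 2. Mrpl1 was at 9.22, 9.03, 8.72 and 8.86 in the arrays labelled SKM-Tg, against 8.76, 7.95 and 9.16 in Wt. Its difference of 0.34 (SE 0.22), the highest of the family, was 0.00 without Wt 2. Mrpl3, Mrpl18, Mrpl49, Mrpl52 and Mrpl11 stood at 0.19, 0.15, 0.14, 0.12 and 0.11, and Mrpl28, Mrpl17 and Mrpl44 at -0.27, -0.18 and -0.16. Without Wt 2, Mrpl3 was 0.06, Mrpl18 0.02, Mrpl28 -0.04 and Mrpl17 0.00. All 16 members with the smallest p-values in this comparison moved by over 1.5 times when 1 array was left out, and Mrps34 alone changed sign.

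The named small-subunit members had mostly negative differences in the arrays labelled SKM-Tg. Mrps16 was at 8.03, 8.02, 8.30 and 7.99 in the arrays labelled SKM-Tg, against 8.27, 8.71 and 8.03 in Wt. SKM-Tg 3 and Wt 2 were each the highest of their group, and the difference of -0.25 (SE 0.14) was -0.14 without both, -0.07 without Wt 2 alone and -0.40 without Wt 3. Mrps34 stood at -0.20 (SE 0.17) and Mrps17 at -0.15 (SE 0.11). By class, 15 of 28 bacterial-type and 14 of 19 mitochondria-specific large-subunit genes were below 0, and 7 of 14 and 5 of 10 of the small subunit. For 57 of 73 members the 95% interval lay within 0.5 of 0, or 47 when the arrays labelled SKM-Tg and Wt were fitted alone.

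The markers of skeletal muscle fibres were lower in the arrays labelled SKM-Tg for 8 of 10 genes (median -0.07), and their summed linear signals did not overlap, at 44255 to 47988 in SKM-Tg and 48038 to 49243 in Wt. In SKM-KO the same markers were lower for 3 of 10 (median 0.03). Among markers of other cells, fat cell genes were higher in the arrays labelled SKM-Tg for 4 of 4 genes (median 1.06). Their sum was 7212 in SKM-Tg 2 and 4114 to 4165 in the other SKM-Tg arrays, against 3507 to 4210 in Wt. Endothelial genes were lower for 7 of 8 (median -0.26), with sums of 3221 to 4458 in SKM-Tg and 4037 to 4779 in Wt, and macrophage genes were lower for 8 of 9 (median -0.29), with sums of 564 to 979 in SKM-Tg and 770 to 993 in Wt. Red blood cell genes were lower for 3 of 3 past the level, of 5 listed (median -0.28). Their sums were 4036 to 5492 in SKM-Tg and 4390 to 6682 in Wt. Fibroblast and matrix genes were lower for 3 of 5 past the level, of 8 listed (median -0.20). None of these passed the threshold either, and their part in the members' differences was not tested.

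**Figure D4:**
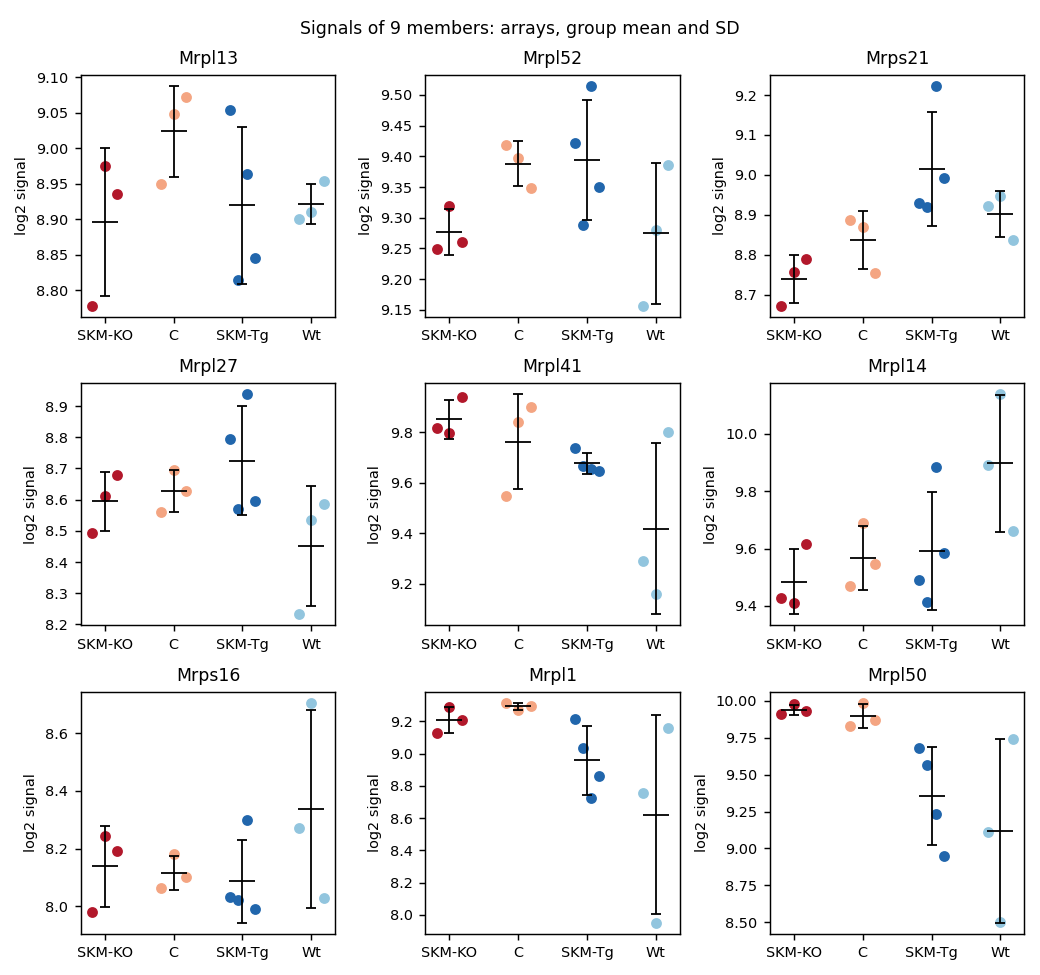
Log2 signal of 9 members in each array (points), with the group mean and SD (bars), for SKM-KO, C, SKM-Tg and Wt. Mrpl52 is the member whose SKM-KO arrays (9.25 to 9.32) lie below all C arrays (9.35 to 9.42), and in Mrpl1 and Mrpl50 the lowest point is Wt 2, at 7.95 and 8.50.

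Some members carry a name that differs from their place or have a role beyond the ribosome. Mrps30 and Mrps18a sit in the large subunit despite their symbols. Mrps30 was at 6.90, 7.13, 7.47 and 7.16 in the arrays labelled SKM-Tg, against 7.39, 7.55 and 7.20 in Wt (difference -0.22, SE 0.13), and its SKM-KO difference was -0.01 (SE 0.14). Mrps18a and its paralogue Mrps18b, a small-subunit protein, stood at -0.15 (SE 0.14) and -0.13 (SE 0.12) in the arrays labelled SKM-Tg, and at -0.07 (SE 0.15) and 0.01 (SE 0.13) in SKM-KO. Mrps36 is now known as a subunit of the oxoglutarate dehydrogenase complex, and stood at -0.06 (SE 0.10) in SKM-KO and -0.04 (SE 0.10) in the arrays labelled SKM-Tg. Mrpl12, a stalk protein that also binds the mitochondrial RNA polymerase, stood at -0.04 (SE 0.17) and -0.13 (SE 0.16). Without Wt 2 the SKM-Tg differences of Mrpl12, Mrpl58, Mrps18a, Mrps18b and Mrps34 were above 0, and none of them passed the threshold.

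The 2 effects were also compared with each other. The difference between the SKM-Tg effect and the SKM-KO effect passed the threshold for 0 members (0.0192% of all genes, 2 genes, passed), with a smallest adjusted p of 0.990 (limma), and 0 members had an unadjusted p under 0.05, against 0.739% of all genes higher and 2.36% lower. It was below 0 for 32 members, where 61.7% of all genes were, with a median of 0.01. Quantile normalization and cyclic loess gave 17 and 18 members, without a share of all genes beside them here. The members with the smallest p were Mrpl52 at 0.23 (SE 0.13), Mrpl27 at 0.31 (SE 0.17), Mrps21 at 0.21 (SE 0.14), Mrpl3 at 0.25 (SE 0.17) and Mrpl1 at 0.42 (SE 0.32) on the positive side. On the negative side they were Mrps16 at -0.27 (SE 0.21), Mrps17 at -0.18 (SE 0.16), Mrpl44 at -0.18 (SE 0.16), Mrpl14 at -0.22 (SE 0.20) and Mrps30 at -0.20 (SE 0.19).

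The 2 control groups were compared to show the distance between them. They share their arrays with the comparisons above, and the labels do not say what separates them. Of the members 0 passed the threshold (0.00959% of all genes did), and the smallest adjusted p was 0.145 (limma). At an unadjusted p under 0.05, 6 were higher and 12 lower in Wt, against 16.2% and 11.6% of all genes. The groups did not overlap for 5 higher and 8 lower members, against 15.4% and 8.5% of all genes. The difference was below 0 for 29 members, where 41.2% of all genes were.

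Mrpl50, found only in mitochondria, was at 9.11, 8.50 and 9.74 in Wt, against 9.83, 9.99 and 9.87 in C, a difference of -0.78 (SE 0.25). All Wt arrays were lower, and they spread over a range far wider than that of C. Mrpl18, whose bacterial homologue contacts the small ribosomal RNA of the large subunit, was at 10.07, 9.79 and 10.30 in Wt, against 10.48, 10.50 and 10.49 in C (difference -0.44, SE 0.13). Mrpl1, Mrps33 and Mrpl47 stood at -0.67, -0.49 and -0.40, and Mrpl38, Mrps34, Mrpl14, Mrps18b and Mrps2 at 0.52, 0.48, 0.33, 0.30 and 0.29. When Wt 3 was left out, 28 members and 4122 of all genes passed the threshold, so the distance between the control groups depended on that array.

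After group means were removed, the members varied together over the 13 arrays. The mean pairwise correlation was 0.298 over members, 0.220 among Mrpl and 0.454 among Mrps genes, against 0.0309 over all genes tested. It was 0.219 for 86 genes of the respiratory chain and ATP synthase and 0.166 for 74 cytosolic ribosomal protein genes. Within SKM-KO and C (6 arrays) the members gave 0.485, and within SKM-Tg and Wt (7 arrays) 0.270. These are descriptions, and the points share the arrays described above as the lowest or highest of their groups. Of the 73 members 61 had a positive correlation with the mean of the rest and 50 had one over 0.5, led by Mrpl40 (0.953) and Mrpl57 (0.930). Mrpl19 (-0.715), Mrpl1 (-0.605), Mrpl47 (-0.575) and Mrpl50 (-0.460) ran against the rest. Outside the family, the genes most like the members' mean over the 13 arrays were Cnot8 (0.981), Ndufaf8 (0.971), Esam (0.967), Pcbp4 (0.954), Pdss2 (0.951), Pyurf (0.949), Isca2 (0.949) and Phlpp1 (0.947).

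The neighbouring machinery was read from lists of genes chosen by function. In SKM-KO the 86 respiratory chain and ATP synthase genes had 57 below 0 and a median of -0.01, and the 74 cytosolic ribosomal protein genes had 21 below 0 and a median of 0.02. None of either list passed the threshold. In the arrays labelled SKM-Tg 61 respiratory chain genes were below 0 (median -0.04) and 46 cytosolic ones (median -0.01), again with none past the threshold. The members' own medians were -0.04 and -0.02.

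**Figure D5:**
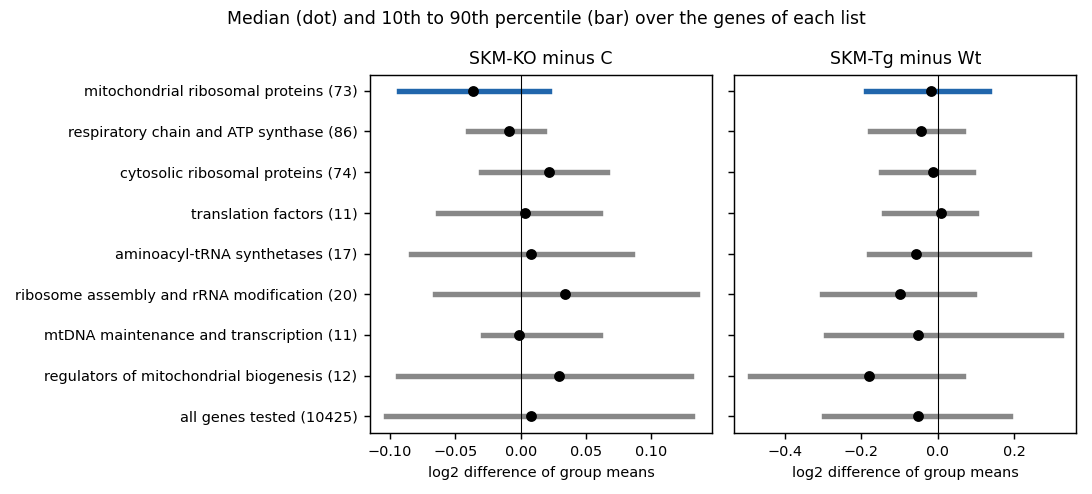
Median (dot) and 10th to 90th percentile (bar) of the difference of group means (horizontal axis, log2) over the genes of each list (rows, with the number of genes), SKM-KO minus C on the left and SKM-Tg minus Wt on the right. The median of the mitochondrial ribosomal protein genes is -0.04 on the left, and on the right the lowest median is that of the regulators of mitochondrial biogenesis, at -0.18.

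Of 11 translation factors of mitochondria, 17 aminoacyl-tRNA synthetase and amidotransferase genes, 20 genes of ribosome assembly and rRNA modification, 11 of mitochondrial DNA maintenance and transcription and 12 regulators of mitochondrial biogenesis, 0 passed the threshold in either comparison. In SKM-KO the medians of these lists lay between 0.00 and 0.03. In the arrays labelled SKM-Tg 14 of the 20 assembly genes were below 0 (median -0.10), and 11 of 20 without Wt 2 (median -0.03). Mrm2, which methylates the large-subunit RNA of the mitochondrial ribosome, was at 5.68, 5.73, 5.61 and 5.71 in the arrays labelled SKM-Tg, against 6.00, 6.36 and 5.91 in Wt. The groups did not overlap, and the difference was -0.41 (SE 0.10, limma adjusted p 0.565), or -0.27 without Wt 2. Of the 20 assembly genes, Mrm2 was the only 1 lower without overlap, where 2.78% of all genes were. Mrm1, another rRNA methyltransferase, stood at -0.45 (SE 0.17).

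Twnk, the neighbour of Mrpl43, was at 6.93, 7.03, 7.23 and 6.93 in the arrays labelled SKM-Tg, against 7.30, 7.36 and 7.30 in Wt, again without overlap (difference -0.29, SE 0.09, limma adjusted p 0.692). Mrpl43 itself stood at -0.11 (SE 0.15). Polrmt, the mitochondrial RNA polymerase, stood at -0.55 (SE 0.26), and at -0.14 without Wt 2. Of the 12 regulators 10 were below 0 in the arrays labelled SKM-Tg (median -0.18), and 9 without Wt 2 (median -0.14). Ppargc1b, a coactivator of mitochondrial biogenesis, was at 7.05, 6.86, 7.56 and 7.48 in the arrays labelled SKM-Tg, against 7.60, 7.73 and 7.87 in Wt. Its groups did not overlap either (difference -0.50, SE 0.17, limma adjusted p 0.702). Twnk and Ppargc1b were each the only gene lower without overlap in their lists of 11 and 12, where 2.78% of all genes were. Nrf1 stood at -0.23 (SE 0.11) and Esrra, an oestrogen-related receptor, at -0.29 (SE 0.16). Without Wt 2, Nrf1 was -0.12 and Esrra -0.09, while Ppargc1b was still -0.50.

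The motifs in the start regions were set beside the differences as a description, with 14 members holding NRF1 letters, 10 GABPA letters and 8 YY1 letters. In the arrays labelled SKM-Tg the median difference was -0.06 with and -0.01 without NRF1 letters, 0.05 with and -0.04 without GABPA letters, and -0.05 with and -0.01 without YY1 letters. In SKM-KO it was -0.02 with and -0.03 without NRF1 letters, -0.04 with and -0.03 without GABPA letters, and -0.05 with and -0.03 without YY1 letters. Among the members holding letters, only the median for GABPA in the arrays labelled SKM-Tg was above 0, and none of these gaps was tested.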

How the data were processed

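Quadriceps RNA of 13 mice was measured on 1 array each. The authors deposited a log2 signal for each of 45141 probe sets, made with RMA per the submitters' processing notes, with no version given. They ran from 2.14 to 13.21, with array medians of 4.85 to 4.94. An array has no read depth, and the number of arrays limits the precision. No batch is given in the labels.

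After 104 control probe sets were set aside, 28898 probe sets had 1 gene symbol, 551 several and 15588 none, and only the first kind was used. A gene was read from its brightest such probe set and tested where the mean over the arrays was 4.9 or more. Of the members' 129 probe sets 111 reached this level. For 27 members with several such probe sets, all agreed in sign for 19 genes in SKM-KO minus C and for 17 in SKM-Tg minus Wt.

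One limma fit (version 3.58.1, R 4.3.3) took all arrays, with a mean for each group and eBayes moderation (9 residual and 3.62 prior degrees of freedom). Tests were two-sided, with Benjamini-Hochberg adjustment over 10425 genes and a threshold of 0.05. Differences are on the log2 scale and stand with the fit's standard error (SE). The fit was tested on simulated data with each line's own spread. It found most of the shifts put in, but in SKM-Tg minus Wt where the spread is wider than the pooled estimate, it made more false calls than the threshold allows. Its p-values there can be too small. In SKM-KO minus C they can be too large, because the pooled spread is wider than that of these groups. There the median SE over members was 0.130 in the joint fit and 0.0740 in the separate fit. Counts from the separate fits are given for both comparisons. Members, lists, motifs and tests were chosen with earlier results of these data known. Named members are those with the smallest p per direction (8 in each main comparison, 5 in the others), the widest and narrowest spread, or a role that differs from the name. Alternatives tried were cyclic loess and quantile normalization, median centring, 2 other filters, the mean of probe sets, every probe set, eBayes with trend and robust, array weights, separate fits and each array left out. Leaving out SKM-KO 1 with C 1, or SKM-Tg 3 with Wt 2, was added after the data were seen. Intervals are 95% intervals of the fit.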

Additional observations from a re-analysis of the deposited data

Results flagged for a closer look

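Among 39 genes examined for a single stray array in the 4 SKM-Tg arrays, 2 had a gap to the next array beyond Dixon's 95% critical value for 4 samples, which chance exceeds in about 1 group of 20. Mrpl44, a large-subunit protein with a ribonuclease-like fold, was at 9.36 in SKM-Tg 3 and at 8.95 to 8.98 in the other SKM-Tg arrays. Mrps16, a small-subunit protein of bacterial type, was at 8.30 in SKM-Tg 3 and at 7.99 to 8.03 in the others. SKM-Tg 3 was above the mean of the other SKM-Tg arrays for 64 of 73 members, and both genes share that array.

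The effect on Trp53inp2 differed between the lines. The SKM-Tg effect minus the SKM-KO effect was 2.29 (SE 0.19, limma adjusted p 2.16e-04), from values that were low in all 3 SKM-KO arrays and overlapped Wt in the arrays labelled SKM-Tg.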

How the results depend on the processing

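No member passed the threshold under any alternative for the 2 main comparisons or the difference of effects. In Wt minus C, 0 to 28 members passed as arrays were left out, 28 of them without Wt 3. Members below 0 numbered 32 to 68 for SKM-KO, 22 to 54 for SKM-Tg and 14 to 48 for the difference of effects with single arrays left out. Quantile normalization gave 26 (SKM-Tg minus Wt) and 17 (difference of effects), cyclic loess 27 and 18, and every probe set 48 in Wt minus C, of 111 probe sets. No share of all genes below 0 is given for these settings. Over all genes, SKM-Tg minus Wt gave 0 to 30 calls, the difference of effects 1 to 2 and Wt minus C 0 to 4122 with single arrays left out. The difference of effects gave 1 call under median centring, the higher filter, every probe set, array weights and without either added pair. SKM-KO minus C gave 2 calls with the mean of probe sets and 3 with every probe set. Wt minus C gave 2 and 4 there, and 0 under quantile, cyclic loess, no filter, array weights, its separate fit and without either added pair.

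In SKM-KO minus C, Mrps18b was -0.000624 under quantile normalization and -0.000196 under cyclic loess, Mrps10 -0.0738 and Mrps23 -0.00106 with the mean of probe sets, and Mrpl41 -0.00232 and Mrpl55 -0.0420 without SKM-KO 1 and C 1. In SKM-Tg minus Wt, Mrps36 was 0.0105 and 0.00508 under the 2 normalizations, and Trp53inp2 0.0271 without SKM-Tg 3 and Wt 2. With single arrays left out, SKM-KO differences ran from -0.0197 to 0.156 (Mrpl41), -0.0660 to 0.147 (Mrpl55), -0.0990 to 0.0572 (Mrpl58), -0.0349 to 0.0604 (Mrps10), -0.0153 to 0.0686 (Mrps17), -0.00928 to 0.0522 (Mrps23), -0.0725 to 0.0416 (Mrps30) and -0.0416 to 0.119 (Mrps34). SKM-Tg differences ran from -0.264 to 0.0390 (Mrpl12), -0.401 to 0.0586 (Mrpl58), -0.305 to 0.00657 (Mrps18a), -0.230 to 0.0159 (Mrps18b), -0.339 to 0.0280 (Mrps34), -0.108 to 0.0104 (Mrps36) and -0.168 to 0.0639 (Trp53inp2). Each range crosses 0. Apart from the arrays left out, the cause was not tested. No paired analysis was run, because the replicate numbers follow accession order and the labels do not say which animals were littermates. The titles hold an animal number for each array, and near numbers in SKM-KO and C were not taken as pairs. The number of arrays and the spread of Wt limit what could be detected.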

Other observations

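Among the ribosomal proteins of mitochondria that carry other names, Dap3, a GTP-binding protein of the small subunit, stood at 0.10 (SE 0.11) in the arrays labelled SKM-Tg, and Ptcd3, a small-subunit protein with RNA-binding repeats, at 0.09 (SE 0.15). Gadd45gip1, a large-subunit protein, was at 7.06, 7.25, 7.76 and 7.26 in the arrays labelled SKM-Tg, against 7.41, 8.31 and 6.99 in Wt, where Wt 2 was the highest of the 13 arrays. Its difference was -0.24 (SE 0.25). In SKM-KO these 3 genes and Chchd1 lay between -0.10 and 0.00.

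Genes that charge mitochondrial tRNAs stood on both sides in the arrays labelled SKM-Tg. Gatc, a subunit of the glutamyl-tRNA amidotransferase, was at 6.96, 6.64, 6.67 and 6.53, against 6.44, 5.96 and 6.66 in Wt (difference 0.35, SE 0.15, limma adjusted p 0.702). Iars2, the isoleucyl-tRNA synthetase, stood at 0.31 (SE 0.14), with Wt 2 the lowest array at 7.80. Tsfm, an elongation factor, stood at -0.29 (SE 0.16). In SKM-KO, Nars2 stood at 0.21 (SE 0.16) and Gatb at -0.13 (SE 0.11). None passed the threshold.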
